A study of Danio rerio with 80 samples.

Results

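The brains of 8 adult male zebrafish kept as larvae in a low concentration of perfluorooctane sulfonic acid (PFOS) were compared with those of 8 control males, 16 of the 80 single-brain libraries of the series. They were chosen by their labels, with no measured value. All fish were wild type of the AB strain. The PFOS10 fish had been kept in 0.3 mg/L PFOS, the amount contained in a pollutant mixture modelled on 10 times the levels in human blood, and the control fish in the solvent, 0.1% dimethyl sulfoxide, each from 6 to 96 hours after fertilisation. They then grew up in clean water. Each group had 4 exposure replicates, numbered 3 to 6, of which 2 males each were sampled at 240, 233, 226 and 219 days after fertilisation in the order of the numbers. Number and age cannot be told apart. Side by side stand 8 PFOS10 females and 8 control females, 8 males kept in 2.06 mg/L PFOS (PFOS70) and 8 males kept in the mixture that holds the same amount of PFOS as PFOS10 (POP10), with the same strain, solvent and exposure time. Females of PFOS70 and POP10, and 8 males and 8 females kept in that mixture at 70 times the blood levels (POP70), served the check of the sex labels.

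PFOS is a fluorinated surfactant that resists breakdown, binds to proteins in blood and persists in tissue. It can activate the peroxisome proliferator-activated receptors (PPARs), nuclear receptors that switch on fatty acid oxidation, and it competes with thyroid hormone for carrier proteins. Brain responses to neuronal activity run through immediate-early genes such as egr1, npas4a and the fos family, whose transcripts build up within minutes, while the day-night cycle of the brain is set by a feedback loop of clock genes. No comparison here times these events, since whole brains of adults were sampled once, long after the exposure had ended.

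The values are log2 of normalised reads, called levels here. Recovered depth was 10.3 to 14.3 Mreads in PFOS10 males and 10.4 to 16.7 Mreads in control males, and a gene at a linear level of 10, the lowest mean tested, had 76.2 to 102 and 76.2 to 120 reads behind it. Brain markers were present in all 16 brains, with snap25a, a synaptic vesicle fusion protein, at 12.40 to 13.04, mbpa, a myelin protein, at 12.22 to 13.63 and fabp7a, a radial glia protein, at 9.56 to 10.35. The microglia marker csf1ra lay between -0.47 and 2.55, below the test minimum. The first principal component of all 80 libraries, called the first component here, held 40.7% of the variance and averaged 0.46 ± 0.89 (SD, n = 8) in PFOS10 males and -0.28 ± 1.04 in control males. One control male of number 3 stood apart at -2.67, the next lowest control being at -0.47, with 16.7% of its reads from the mitochondrial genome. The first component was computed from the same libraries, and its means differed between the groups. A fit with it as a covariate can therefore also take out a difference between the groups.

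Both libraries labelled control male of number 3 also went against their label in a gene that separates the sexes. The enzyme dio2, which makes the active thyroid hormone, was chosen as a check from the 48 PFOS70, POP10 and POP70 fish, where 53 genes differed between the sexes (limma, adjusted p under 0.05) and dio2 had the smallest p. It lay between 6.13 and 8.00 (median 6.92) in 37 of the 40 libraries labelled male and between 3.88 and 5.81 (median 4.80) in all 40 labelled female. The library labelled control male 3_1 stood at 4.42 and that labelled control male 3_2 at 3.57, and a library labelled POP10 male 3_1 stood at 3.66. The clone-named gene si:dkey-238o13.4 and apof, a lipoprotein gene, were also lower in both control libraries (4.55 and 3.40, and 5.49 and 4.28) than in any of the 37 others (lowest 6.16 and 5.77). For ca6, a secreted carbonic anhydrase, and hsd17b3, a testosterone-making enzyme, the lowest of the 37 others were at 2.79 and 4.76, and of both libraries only 3_1 was lower, for hsd17b3 (3.07 and 2.97 for ca6, 4.63 and 4.79 for hsd17b3). The libraries keep their labels here, and values without both control libraries are given as "without number 3 controls". Fits given this way also leave out the library labelled POP10 male 3_1, which enters the test of PFOS10 against control males only through the shared estimate of spread. The libraries left out were chosen after the data were seen. Such values keep both PFOS10 males of number 3, so the exposure numbers no longer match between the groups. A difference given this way can also hold differences between exposure numbers.

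**Figure D1:**
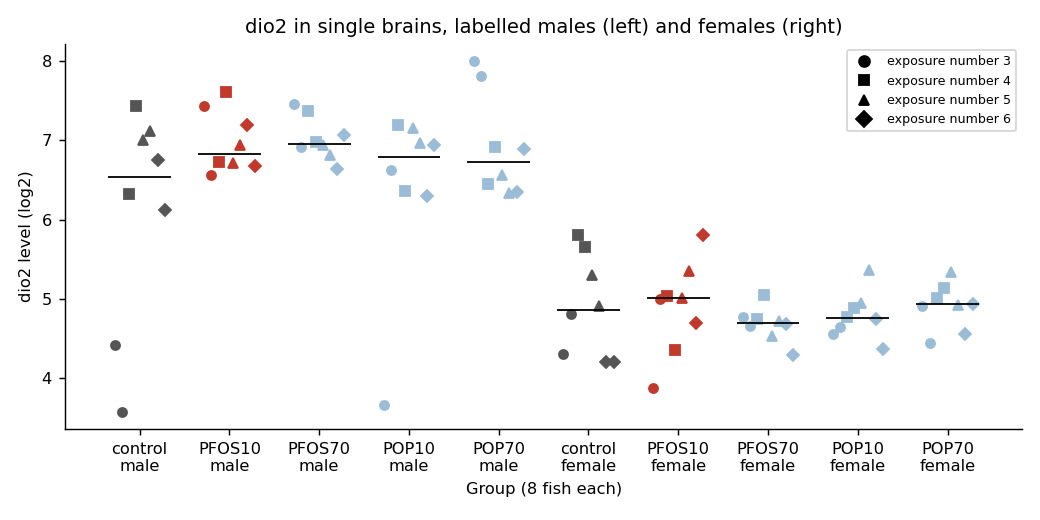
Level of dio2 (log2, vertical axis) in each of the 80 brains by labelled group (horizontal axis), with marker shapes for exposure numbers and a line at each median. Control males of number 3, at 4.42 and 3.57, and 1 POP10 male, at 3.66, lie within or below the range of the females, 3.88 to 5.81, and the other 37 males above it.

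No gene passed the test between PFOS10 and control males in the fit of all fish, and 1 did in the fit of the 16 males with the number as a replicate block. Of 10231 genes tested with limma, 0 had an adjusted p under 0.05 (0.0%), and the smallest adjusted p was 0.831. An unadjusted p under 0.05 was found for 329 genes (3.22%), 205 higher in PFOS10 males (2.0%) and 124 lower (1.21%), while 511.6 would fall below that threshold if no gene differed. A weighted fit of the recovered reads (limma's voom) also called 0, with 409 genes under an unadjusted 0.05. Without number 3 controls 0 were called and 182 genes had an unadjusted p under 0.05 (1.78%). Without PFOS10 male 3_1, a setting also chosen after the data were seen, 0 were called and 249 had one. With the replicate block in the 16 males 1 gene was called (0.00977%), si:ch211-132b12.7 (chr18:40668615-40684792), at 4.83 to 8.37 in PFOS10 males and 5.41 to 9.06 in control males. The groups overlapped, and the difference was -0.88 ± 0.11 (adjusted p = 0.00987, limma), with -0.78, -1.08, -0.57 and -1.10 in numbers 3 to 6. In the fit of all fish that difference was -0.41 ± 0.79 without number 3 controls, where numbers are not matched. The female difference was -0.75. The same block in the fit of all fish called 0, with 694 genes under an unadjusted 0.05, more than 511.6. Whether that count lies under or over 511.6 thus depends on the fit.

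Differences between the groups were mostly small against the spread of the fish. The median gene differed by 0.10 in size on the log2 scale, with a standard error of 0.13 and a 95% interval of 0.26 to either side, and 55 genes differed by over 1 in size, 46 of them higher in PFOS10 males. The SD of a median gene was 0.23 over 8 PFOS10 males and 0.27 over 8 control males. The mean was higher in PFOS10 males for 6153 genes (60.1%) and the median difference was 0.03. Without number 3 controls 4947 genes were higher (48.4%) and that median was -0.0045. Leaving number 3 out of every group, which keeps the numbers matched, gave a median of 0.021. Both males of a replicate shared their exposure, so the tests reflect variation among fish more than among exposures.

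**Figure D2:**
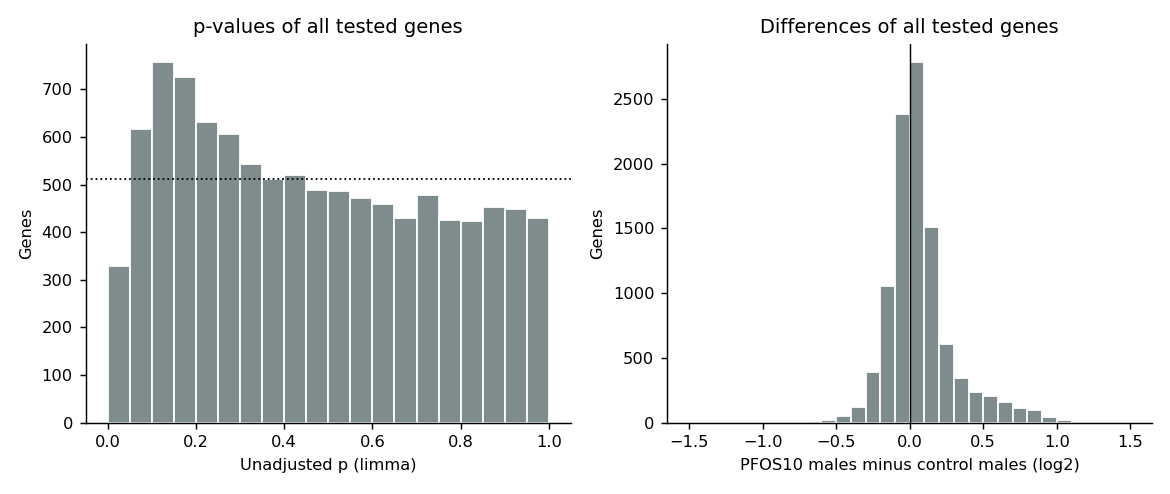
Left, number of genes per bin of 0.05 of the unadjusted limma p, with a dotted line at the mean of the bins. Right, number of genes per bin of 0.1 of the difference between PFOS10 and control males (log2), with differences beyond 1.5 counted in the outer bins. The leftmost p bin holds 329 genes, fewer than the 617 of the next one.

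A single gene lay higher in all 8 PFOS10 males than in all 8 controls (0.00977% of genes) and none lay lower in all. This was mical3b (chr4:9724192-9764769, build GRCz11), of the MICAL family of actin-oxidising enzymes, at 6.69 to 7.16 (median 6.73) in PFOS10 males and 6.26 to 6.65 (median 6.56) in control males. Its difference was 0.27 ± 0.11 (adjusted p = 0.831, limma), and 0.22 without number 3 controls. The count of genes with all 8 fish apart was not tested against chance. By the 4 exposure replicate means, 99 genes were entirely higher (0.968%) and 64 entirely lower (0.626%). Chance alone sets 4 means entirely apart from 4 others, in either direction, with a probability of 0.0286 per gene. Fish of every number were on average higher for 882 genes (8.62%) and lower for 535 (5.23%).

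The genes with the smallest p among those higher in PFOS10 males held a chromatin protein, a glycosylation enzyme and a nucleotide kinase. In the fit of all fish each gene had an adjusted p of 0.831 or more (limma), so the values below describe genes that did not pass. SFMBT1 (chr11:18283948-18323059), a chromatin protein with methyl-lysine-binding domains, had levels of 5.95 to 6.65 (median 6.11) in PFOS10 males and 5.51 to 6.16 (median 5.90) in control males, a difference of 0.34 ± 0.10. All 8 PFOS10 males lay above the control median, but the groups overlapped. For alg3 (chr2:44972720-44981344), a mannosyltransferase of protein N-glycosylation in the endoplasmic reticulum, levels were 3.86 to 4.70 (median 4.28) in PFOS10 males and 3.23 to 3.97 (median 3.47) in control males. Only 3 PFOS10 males lay within the control range, and the difference was 0.72 ± 0.23, or 0.73 without number 3 controls. The difference of alg3 in females was -0.11 ± 0.23, and the test of male against female differences had an adjusted p of 0.9999 (limma).

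The nucleoside diphosphate kinase gene nme2b.2 (chr19:48111285-48114444) had levels of 3.85 to 6.57 (median 5.11) in PFOS10 males and 1.92 to 4.86 (median 4.09) in control males, a difference of 1.38 ± 0.43. The 4 PFOS10 males above the control range were those of numbers 5 and 6, where the differences were 2.22 and 2.14, and those of numbers 3 and 4 lay among the controls. Its neighbour copy nme2b.1 had a difference of -0.05 ± 0.10, and how reads shared between such copies were counted is not given in the sources used here, so the level of nme2b.2 is uncertain. Polyamine synthesis begins with ornithine decarboxylase, odc1, at 4.99 to 6.09 (median 5.19) in PFOS10 males and 4.67 to 5.26 (median 4.97) in control males, a difference of 0.42 ± 0.13. The transcription factor zbtb16a, a zinc finger repressor that glucocorticoids induce in mammals, was at 6.47 to 7.59 (median 6.79) in PFOS10 males and 5.84 to 6.78 (median 6.49) in control males (0.50 ± 0.17), and its paralog zbtb16b differed by 0.39 ± 0.14. The differences of these paralogs in females were -0.20 ± 0.17 and -0.11 ± 0.14. Other genes of this rank were ccdc51, a mitochondrial coiled-coil protein (0.40 ± 0.13; 0.27 without number 3 controls), gpr186, an orphan receptor (1.21 ± 0.40), and dis3l2, an RNA-degrading nuclease (0.45 ± 0.15).

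**Figure D3:**
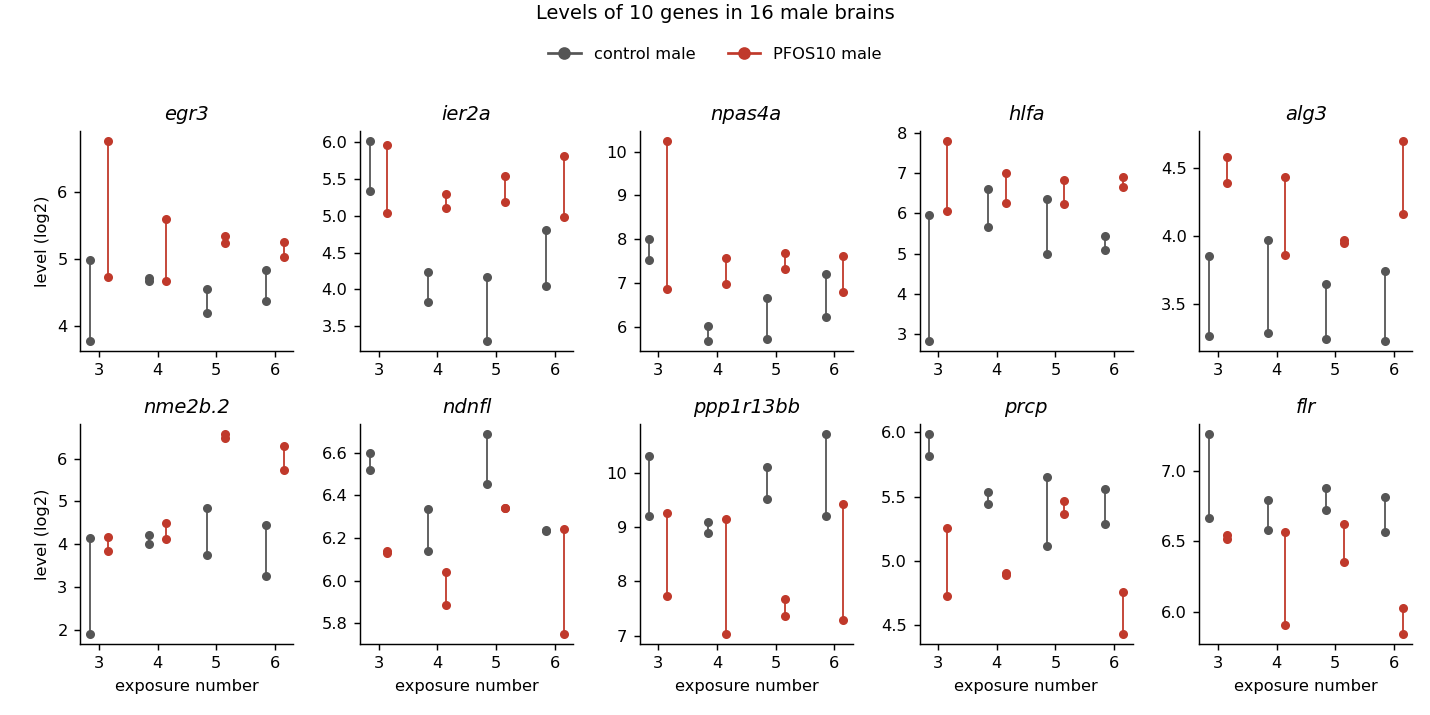
Levels (log2, vertical axes) of 10 genes in the 16 male brains by exposure number (horizontal axes), with a point for each fish and a line joining both fish of a group and number. Control fish are grey and PFOS10 fish red. For flr, 6 PFOS10 males lie below every control, and for nme2b.2 only fish of numbers 5 and 6 lie above the controls.

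Among genes with a symbol that were lower in PFOS10 males, the smallest p belonged to ndnfl (chr17:26569601-26586739), whose relative ndnf encodes a secreted neurotrophic factor in mammals, at 5.75 to 6.34 (median 6.13) in PFOS10 males and 6.14 to 6.69 (median 6.39) in control males. It was lower in all 4 numbers, with values of -0.42 to -0.23, with a difference of -0.29 ± 0.08, and the groups overlapped in 3 PFOS10 fish. The gene flr (chr3:28831450-28853935), which encodes a protein of ciliary transport, was at 5.85 to 6.62 (median 6.43) in PFOS10 males and 6.56 to 7.26 (median 6.75) in control males. All 4 of its exposure replicate means were lower and 6 fish lay below every control, with a difference of -0.49 ± 0.15, or -0.43 without number 3 controls. A lysosomal peptidase, prcp, was at 4.43 to 5.46 (median 4.90) in PFOS10 males and 5.11 to 5.99 (median 5.54) in control males (-0.57 ± 0.17), with a difference of 0.03 in number 5 and between -0.91 and -0.59 in the others. In females it differed by -0.01 ± 0.17, and the difference between the sexes had an adjusted p of 0.9999 (limma).

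The gene ppp1r13bb (chr20:20731052-20814177), of the ASPP family that binds p53, was at 7.04 to 9.42 (median 7.70) in PFOS10 males and 8.89 to 10.71 (median 9.36) in control males. Of the PFOS10 males 5 lay below every control, both fish of number 5 and 1 fish of each other number, and the difference was -1.52 ± 0.45. Female levels were 7.23 to 9.53 in PFOS10 and 7.83 to 10.11 in control females. The autophagy gene becn1 (-0.18 ± 0.06), the endosomal sorting gene snx17 (-0.20 ± 0.07), the mitochondrial magnesium channel mrs2 (-0.37 ± 0.12; -0.24 without number 3 controls) and the F-box gene fbxl6 (-0.41 ± 0.14) followed.

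The symbol rrm2, the small subunit of ribonucleotide reductase, stood on 2 entries, and its level is uncertain. The tested entry on chromosome 19 ranged from 3.34 to 4.76 in 7 PFOS10 males and had 0 reads in PFOS10 male 5_1, for a difference of -1.53 ± 0.50. A second entry of the same symbol on chromosome 20, below the test minimum, held a linear level of 27.0 in that fish and 0 to 11.8 in the other 15. Summed over both entries the level was 3.41 to 4.76 (median 4.47) in PFOS10 males and 3.93 to 5.39 (median 4.80) in control males, a difference of -0.40 on the log2 scale.

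Immediate-early genes had higher means in PFOS10 males for 25 of 33 tested, against 60.1% of all genes, with a median difference of 0.15 against 0.03 for all genes. An unadjusted p under 0.05 was found for 5, all higher, against 2.0% of all genes, and no member passed the test. The zinc finger factor egr3 (chr8:50727220-50733508) was at 4.68 to 6.77 (median 5.25) in PFOS10 males and 3.79 to 4.995 (median 4.62) in control males, with 6 fish above every control (0.81 ± 0.25). Its relative egr1 differed by 0.33 ± 0.17 (0.55 without number 3 controls). For ier2a (chr3:33761549-33762726), a nuclear response factor, levels were 4.98 to 5.96 (median 5.24) in PFOS10 males and 3.31 to 6.01 (median 4.21) in control males, a difference of 0.90 ± 0.31. Within the numbers it differed by -0.17, 1.17, 1.62 and 0.97 from 3 to 6, and both control males of number 3, at 6.01 and 5.33, lay within the PFOS10 range or above it.

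Without number 3 controls the ier2a difference was 1.298 (adjusted p = 0.657, limma). All 8 PFOS10 males, at 4.98 or more, then lay above the 6 other controls, at 4.81 or less. Both controls left out were higher than those 6. Such a separation from the 6 controls was seen for 3 genes upwards (0.0293%), the others being capn1b and mical3b, and for 3 genes downwards (0.0293%), gosr1, npy and vrk3. These names were taken after their values were seen, and the counts were not tested against chance. The activity-dependent factor npas4a, of neurons, was at 6.79 to 10.24 (median 7.44) in PFOS10 males and 5.68 to 8.00 (median 6.44) in control males (1.004 ± 0.47; 1.38 without number 3 controls). Its highest value, 10.24, came from PFOS10 male 3_1, and the next was 7.67. That fish was also the highest PFOS10 male for the orphan nuclear receptor nr4a1 (6.78), whose difference was 1.12 ± 0.50, and for the AP-1 subunit fosab (7.31), at 0.54 ± 0.42. Without PFOS10 male 3_1 the differences were 0.63 for npas4a, 0.69 for nr4a1, 0.28 for fosab and 0.61 for egr3. The list then had 22 of 33 higher with a median of 0.11, beside 6602 of all 10231 genes with a median of 0.043. With that fish, the differences were 1.57 for nr4a1 and 1.09 for fosab without number 3 controls. Exposure numbers are not matched there, and control means were highest in number 3, at 3.999 for nr4a1 and 6.56 for fosab. The same held for ier2a, npas4a and egr1, at 5.67, 7.76 and 9.65. Values of these genes without number 3 controls thus also hold differences between numbers. Another member was dusp5, a phosphatase that limits MAP kinase signalling (0.47 ± 0.21).

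By exposure number the medians of the immediate-early genes were 0.01, 0.27, 0.66 and -0.02 for 3 to 6, so they were near 0 in numbers 3 and 6. Over the exposure replicate means an exact two-sided permutation test of 4 against 4 gave p = 0.143 for ier2a and npas4a, 0.2 for nr4a1, 0.314 for egr1 and 0.457 for fosab, where 0.0286 is the smallest p that this design allows, and over 8 genes tested this way the adjusted p was 0.457 or more. Exact tests of the 4 paired differences cannot go below 0.125, which npas4a reached, higher in 4 of 4 numbers, and ier2a gave 0.25.

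**Figure D4:**
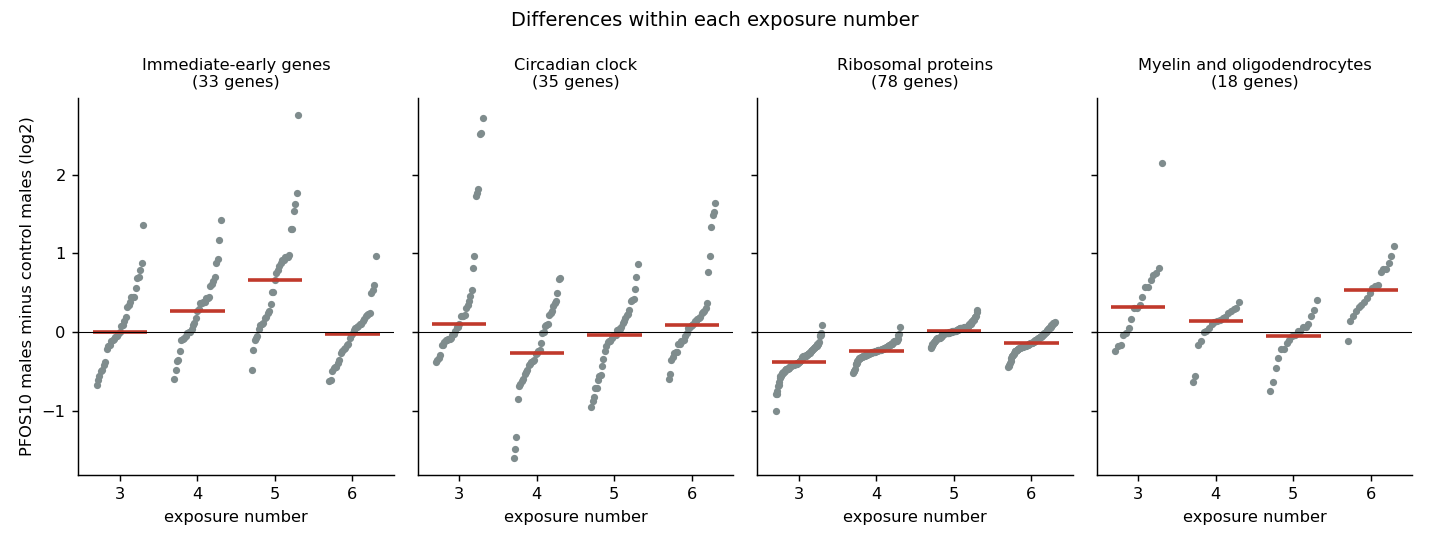
Difference between PFOS10 and control males (log2, vertical axes) within each exposure number (horizontal axes) for the tested genes of 4 lists, a grey point for each gene in order of its value and a red line at the median. The immediate-early medians are 0.27 and 0.66 in numbers 4 and 5 and near 0 in numbers 3 and 6, and the ribosomal medians are below 0 in all numbers but 5.

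Females at the same exposure were compared with their own controls, in brains that share no fish with the males. They carry the same exposure numbers and ages as the males, so differences between exposures can enter both sexes alike. There ier2a differed by 1.42 ± 0.31, npas4a by 1.88 ± 0.47, nr4a1 by 1.56 ± 0.50 and egr1 by 0.63 ± 0.17, each a larger value than in males, while egr3 differed by 0.47 ± 0.25, a smaller one. Of all genes 0 passed in females (limma, 0.0%), 4.77% had an unadjusted p under 0.05 and 60.9% had higher means. Here 27 of the 33 immediate-early genes had higher means, with a median of 0.34. The male minus female difference was -0.52 ± 0.45 for ier2a and -0.87 ± 0.66 for npas4a (adjusted p = 0.9999 for both, limma). Over all genes the test of male against female differences called 0 of 10231 (limma, 0.0%), with 186 under an unadjusted 0.05 (1.82%).

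Clock genes had no common direction. Of 35 tested, 18 had higher and 17 lower means, with a median of 0.00, and 6 were higher and 7 lower in all 4 numbers, against 8.62% and 5.23% of all genes. With the first component as a covariate 12 of 35 had higher means (median -0.11), and without control male 3_2 15 of 35 (-0.03). The output factor hlfa (chr3:11585298-11624694), a PAR bZIP protein, had the smallest p, at 6.05 to 7.80 (median 6.75) in PFOS10 males and 2.84 to 6.62 (median 5.55) in control males, a difference of 1.35 ± 0.42. Its lowest value, 2.84, came from control male 3_2, the library that stood apart on the first component, and the difference was 1.03 without number 3 controls and 0.84 with the first component as a covariate. In the negative arm of the loop nr1d1, the Rev-erb repressor, differed by -0.81 ± 0.83 (adjusted p = 0.848) and the period gene per1a by -0.44 ± 0.69 (adjusted p = 0.898). Both were lower in all 4 numbers, with the lowest values in number 4, -1.60 and -1.49.

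Levels of these repressors ranged widely between numbers. Mean nr1d1 levels of control males were 7.40, 5.98, 3.76 and 7.60 in numbers 3 to 6 and those of PFOS10 males 7.23, 4.39, 2.88 and 6.99. Number 5 was thus the lowest in both groups. Exact permutation tests of 4 against 4 means gave p = 0.6 for nr1d1 and 0.743 for per1a, and exact tests of the 4 paired differences gave 0.125 for both, the smallest p that 4 pairs allow. Without number 3 controls the differences were -0.41 and -0.17, and without PFOS10 male 3_1 -1.14 and -0.63. Neither setting keeps the exposure numbers matched, and nr1d1 was high in number 3 of both groups, at 7.40 and 7.23. These values thus also hold differences between numbers, while the differences within numbers 4 to 6 stay the same. In females of number 4 the differences were -0.28 for nr1d1 and -0.37 for per1a.

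Transcripts of the cytosolic ribosome were lower in PFOS10 males for 77 of 78 protein genes, with a median of -0.18, against 0.03 for all genes. An unadjusted p under 0.05 was found for 9, all lower, against 1.21% of all genes, and 25 were lower in all 4 numbers, against 5.23%. None passed the test. The small-subunit protein gene rps26 (chr23:27675581-27677516) was at 7.23 to 7.86 (median 7.49) in PFOS10 males and 7.57 to 8.24 (median 7.95) in control males, with all 4 exposure replicate means lower (-0.35 ± 0.12). The stalk protein gene rplp1 was at 8.83 to 9.68 (median 9.49) in PFOS10 males and 9.37 to 10.48 (median 9.87) in control males (-0.44 ± 0.18), and rpl36 differed by -0.32 ± 0.13. The 78 genes together took 3.41% ± 0.46 of the reads in PFOS10 males and 3.90% ± 0.60 in control males (SD, n = 8). Their medians by number were -0.38, -0.24, 0.01 and -0.13 for 3 to 6, and number 5 was the exception.

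Values of the ribosomal genes were smaller in the fit with the first component. With the first component as a covariate their median was -0.06, with 66 of 78 lower, and without number 3 controls it was -0.15, with 77 of 78 lower. PFOS10 females against control females, with the same exposure numbers and ages as the males, had a median of -0.21, with all 78 lower. Against the same control males, PFOS70 males had 2 of 78 higher (median -0.13) and POP10 males 34 of 78 (median -0.008). Over all 10231 genes these counts were 6221 and 5557. The part of the first component, and of what it measures, in the male values was not tested.

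Genes of neurons and synapses mostly had higher means in PFOS10 males, as did 60.1% of all genes. Among the markers of synaptic vesicles and mature neurons this held for 32 of 39, with a median of 0.13, for glutamate genes for 31 of 44 (0.14) and for calcium signalling genes for 39 of 47 (0.20). With the first component as a covariate these medians were 0.02, -0.01 and 0.01, and without number 3 controls 0.05, 0.09 and 0.09. Without control male 3_2 alone they were 0.05, 0.11 and 0.12. The neurofilament gene nefma was at 7.09 to 8.61 (median 7.99) in PFOS10 males and 5.46 to 7.88 (median 7.50) in control males (0.55 ± 0.23; 0.27 without number 3 controls). The microtubule protein gene map1b differed by 0.36 ± 0.15, the NMDA receptor subunit gene grin2aa by 0.36 ± 0.16 and the calcium buffer gene pvalb6 by 0.25 ± 0.14. Without control male 3_2 nefma differed by 0.29, grin2aa by 0.21 and pvalb6 by 0.12. The neuronal brain markers elavl3, snap25a, snap25b and syt1a differed by 0.45 ± 0.34, 0.05 ± 0.08, 0.04 ± 0.13 and -0.003 ± 0.07. For elavl3 the difference was 0.18 without number 3 controls. In whole brains, the number of cells of a type and the RNA per cell cannot be told apart.

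Inhibitory transmission showed its smallest p among genes of glycine. The glycine transporter gene slc6a5, which marks glycinergic neurons, was at 3.64 to 5.33 (median 4.32) in PFOS10 males and 2.00 to 5.28 (median 3.25) in control males, a difference of 1.05 ± 0.41. The groups overlapped, and it was higher in 4 of 4 numbers, by 0.27 to 2.01. The receptor subunits glra1 and glrba differed by 0.29 ± 0.12 and 0.38 ± 0.16. Of the GABA and glycine genes 15 of 23 had higher means (median 0.14), against 60.1% of all genes. The median was 0.076 without PFOS10 male 3_1, 0.042 without control male 3_2, 0.074 without number 3 controls and 0.027 with the first component as a covariate. Hox genes, which mark hindbrain and spinal cord, had 0 tested members, and their summed linear level was 3.40 to 82.6 (median 16.1) in PFOS10 males and 0.99 to 18.4 (median 6.31) in control males. Their part in the slc6a5 values was not tested. In females slc6a5 differed by -0.45 ± 0.41, and the test between the sexes gave an adjusted p of 0.9999 (limma).

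Myelin and oligodendrocyte genes were higher for 16 of 18, with a median of 0.25, against 60.1% and 0.03 over all genes. None of the list had an unadjusted p under 0.05. The lineage factor sox10 was at 4.90 to 5.66 (median 5.26) in PFOS10 males and 3.87 to 5.32 (median 5.09) in control males (0.32 ± 0.16), and the myelin protein genes mpz and plp1b differed by 0.33 ± 0.19 and 0.32 ± 0.18. Without control male 3_2 sox10 differed by 0.17 and mpz by 0.15. The abundant mbpa differed by 0.07 ± 0.20, and by -0.05 without number 3 controls. By number the medians were 0.32, 0.14, -0.04 and 0.53 for 3 to 6, and the median of the list was 0.11 without control male 3_2 and 0.09 without number 3 controls. In females it was -0.05.

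**Figure D5:**
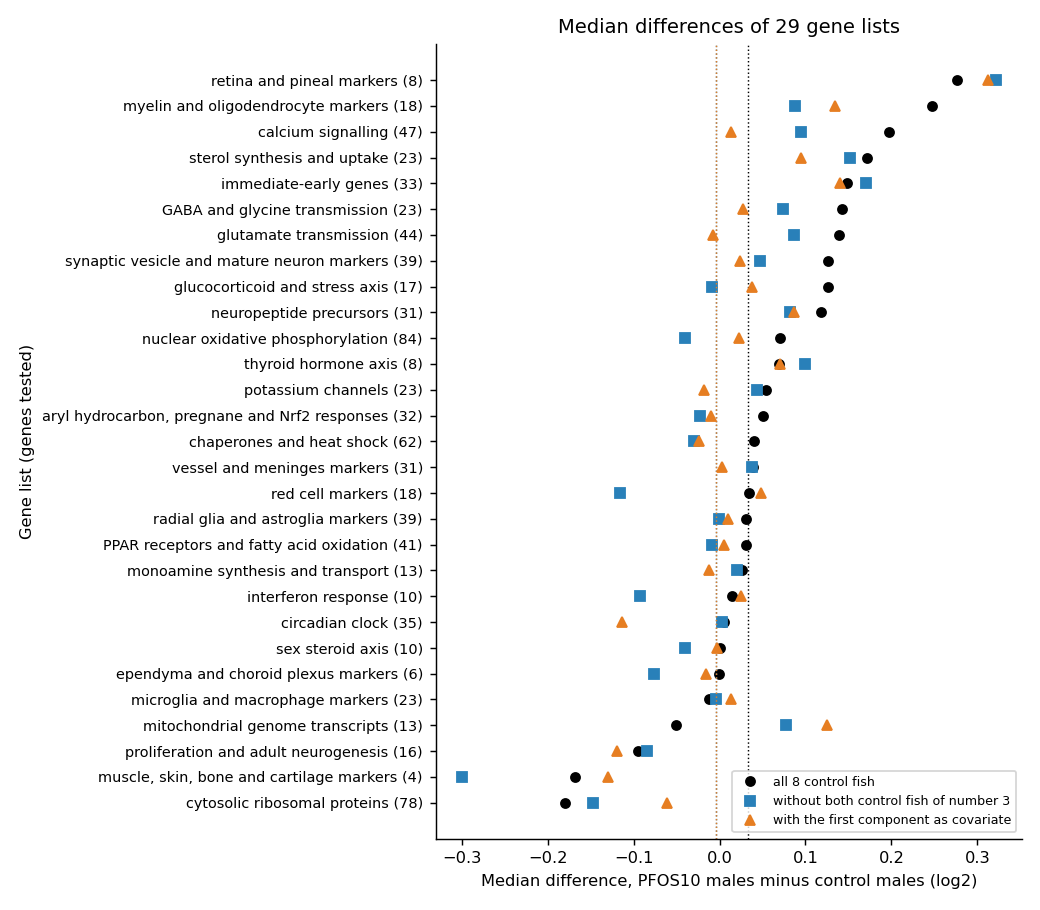
Median difference between PFOS10 and control males (log2, horizontal axis) of the 29 gene lists with tested members (vertical axis, number tested in parentheses), with all 8 control males (black circles), without both control males of number 3 (blue squares) and with the first component as a covariate (orange triangles). Dotted lines mark the medians over all genes, 0.03, -0.00 and -0.00. Ribosomal genes have the lowest black median, -0.18.

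Lipid genes were examined as targets of PFOS known from other work. Of the PPAR and fatty acid oxidation genes 25 of 41 had higher means (median 0.03), against 60.1% of all genes, and none an unadjusted p under 0.05. Higher means were counted for 22 (median 0.011) without control male 3_2 and 20 (median -0.0084) without number 3 controls. Over all genes these counts were 5351 and 4947 of 10231. The acyl-CoA synthetase gene acsl2 differed by 0.68 ± 0.39, the thiolase gene acaa2 by 0.37 ± 0.22 and the receptor gene pparaa by 0.31 ± 0.22. These were, without number 3 controls, 0.41, 0.23 and 0.14. Sterol synthesis and uptake genes had higher means for 22 of 23, with a median of 0.17, and none an unadjusted p under 0.05. Among these were the rate-limiting enzyme gene hmgcrb, at 5.28 to 5.77 (median 5.53) in PFOS10 males and 4.93 to 5.61 (median 5.35) in control males (0.18 ± 0.10), the lanosterol synthase gene lss (0.37 ± 0.21) and the lipoprotein receptor gene ldlrb (0.66 ± 0.43). The values of hmgcrb and ldlrb were 0.11 and 0.37 without number 3 controls. The sterol median was 0.09 with the first component and 0.15 without number 3 controls, and by number 0.20, 0.17, -0.07 and 0.24 for 3 to 6. In PFOS10 females 14 of 23 sterol genes had higher means (median 0.04), against 60.9% of all genes. Against the same control males, PFOS70 males had 12 of 23 higher (0.01) and POP10 males 14 of 23 (0.06). Over all 10231 genes these counts were 6221 and 5557.

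Among genes of the thyroid hormone axis dio2 was at 6.57 to 7.61 (median 6.83) in PFOS10 males and 3.57 to 7.43 (median 6.54) in control males, a difference of 0.89 ± 0.34. That difference was 3.002 in number 3 and between -0.24 and 0.50 in the others. Without number 3 controls it was 0.19, so its size rested on the libraries that went against their label. The receptor gene thrb was at 8.34 to 9.55 (median 9.12) in PFOS10 males and 8.88 to 9.76 (median 9.54) in control males, lower in 4 of 4 numbers (-0.35 ± 0.18), and the hormone transporter gene slco1c1 differed by 0.54 ± 0.29. Of the 10 sex steroid genes tested 5 had higher and 5 lower means, and the estrogen receptor gene esr1 differed by -0.17 ± 0.23 (adjusted p = 0.879; -0.26 without PFOS10 male 3_1). The aromatase gene cyp19a1b was not analysed here.

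Stress and detoxification genes came next. Over all genes 60.1% had higher means, 5351 of 10231 without control male 3_2 and 4947 without number 3 controls. An unadjusted p under 0.05 (limma) was found for 2.0% of all genes as higher and 1.21% as lower. Of 17 glucocorticoid and stress genes 12 had higher means, and those with an unadjusted p under 0.05 were the paralogs zbtb16a and zbtb16b. The median of 0.13 was 0.023 without PFOS10 male 3_1, and higher means were counted for 12 (median 0.01) without control male 3_2 and 8 (median -0.0087) without number 3 controls. Of 32 genes of the aryl hydrocarbon, pregnane and Nrf2 responses 20 had higher means, with a median of 0.05, and 1 had an unadjusted p under 0.05, the glutathione synthesis gene gclc at 0.14 ± 0.06. Of these 32, higher means were counted for 14 (median -0.022) without control male 3_2 and 15 (median -0.023) without number 3 controls. Nuclear genes of oxidative phosphorylation were higher for 65 of 84, with a median of 0.07, but for 30 of 84 without control male 3_2 and 27 of 84 without number 3 controls. The 13 mitochondrial transcripts had a median of -0.05, of 0.022 without control male 3_2 and of 0.08 without number 3 controls. Of 16 proliferation and neurogenesis genes 6 had higher means (median -0.10, or -0.037 without PFOS10 male 3_1), and the proneural factor gene ascl1a differed by -0.35 ± 0.17.

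Over all genes 60.1% had higher means (median 0.03). Of the other lists, 27 of 39 radial glia genes (median 0.03), 8 of 13 monoamine genes (0.03), 40 of 62 chaperone genes (0.04) and 14 of 23 potassium channel genes (0.05) had higher means. So had 6 of 10 interferon genes (0.01), 11 of 23 microglia genes (-0.01) and 18 of 31 vessel genes (0.04). Higher means were also found for 11 of 18 red cell genes (0.03), 3 of 6 ependyma genes (-0.00), 6 of 8 retina and pineal genes (0.28) and 1 of 4 muscle, skin and bone genes (-0.17).

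Several of these counts moved when libraries were left out, and so did the count over all genes. Of all 10231 genes 5351 had higher means (median 0.00645) without control male 3_2 and 4947 (median -0.0045) without number 3 controls. Without PFOS10 male 3_1 they numbered 6602 (median 0.043), and with the first component as a covariate 4940 (median -0.0042). Higher means were then found for chaperone genes in 27 (median -0.012) without control male 3_2 and 20 (median -0.029) without number 3 controls. Red cell genes with higher means numbered 8 (median -0.038) without control male 3_2 and 5 (median -0.12) without number 3 controls. Those of radial glia numbered 20 (median 0.00036) without control male 3_2 and 19 (median -0.00088) without number 3 controls. Interferon genes with higher means numbered 3 (median -0.065) without control male 3_2 and 3 (median -0.093) without number 3 controls. For microglia genes higher means were found for 16 of 23, with a median of 0.092, without PFOS10 male 3_1. Medians without that fish were 0.11 for retina and pineal genes and -0.031 for muscle, skin and bone genes. The monoamine median was 0.07 without control male 3_2, and the ependyma median -0.059. Those of the vessel and potassium channel genes were 0.059 and 0.035. With the first component as a covariate 10 of 23 potassium channel genes and 6 of 13 monoamine genes had higher means.

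Markers of other cells gave these values beside the results above. The summed linear level of 35 red cell genes was 2581 to 5372 in PFOS10 males and 2295 to 8925 in control males, and that of 59 vessel and meninges genes 3056 to 6158 and 1885 to 7406. Both overlapped widely. The 46 microglia and macrophage genes summed to 3326 to 4970 and 3942 to 5860. Lymphocyte and neutrophil genes and pituitary hormones had 0 tested members. Their sums were 28.4 to 50.3 and 6.29 to 32.6 in PFOS10 males and 29.8 to 49.3 and 8.22 to 32.6 in control males. Their part in the results was not tested.

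Males kept in the higher PFOS level were tested directly against PFOS10 males. No gene passed (0 of 10231, 0.0%, limma), and 191 had an unadjusted p under 0.05 (1.87%). The immediate-early genes ier2a and ier2b had PFOS70 minus PFOS10 differences of -1.14 ± 0.31 and -0.83 ± 0.25, each with an adjusted p of 0.9997. The calcium-dependent protease gene capn1b differed by -0.61 ± 0.15, and ndnfl and snx17 by 0.30 ± 0.08 and 0.22 ± 0.07. Since the PFOS10 fish stand in both comparisons, the ndnfl, snx17 and ier2a values are not separate from those against control.

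Males kept in the mixture with the same amount of PFOS gave 0 calls against PFOS10 males as well (0.0%), with 487 genes under an unadjusted 0.05 (4.76%). The smallest p values belonged to olfm1a, a secreted neuronal glycoprotein gene, at -0.74 ± 0.21, and srp14, of the signal recognition particle, at -0.50 ± 0.15, each with an adjusted p of 0.852. For ier2a the difference was -0.17 ± 0.31. Without the library labelled POP10 male 3_1 and number 3 controls 0 were called and 532 had an unadjusted p under 0.05.

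Between the sexes the smallest p belonged to fhod1, an actin-nucleating formin, which differed by 0.45 ± 0.17 in males and -0.48 ± 0.17 in females (adjusted p = 0.9999, limma). The male difference of ca6, a gene with higher levels in males, was 0.54 ± 0.25 and its female difference -0.58 ± 0.25 (adjusted p = 0.9999, limma), and the male difference was 0.31 without number 3 controls. The splicing factor gene sf3b3 differed by -0.12 ± 0.07 in males and 0.21 ± 0.07 in females, and by -0.05 in males without control male 3_2.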

How the data were processed

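Poly-A RNA of single whole brains was sequenced as 150 bp pairs, per the labels' protocols. Tools listed in the submitters' processing notes, without roles, are STAR 2.5.4b, Trim Galore 0.4.5, R 3.5.0 and DESeq2, and the build is GRCz11. Per the file headers, the authors deposited log2 normalised values for each fish. How they were scaled, and how reads were counted or assigned to strands, is not given in the sources used here. All values below 5000 reads lay within 0.02 of whole reads times a library constant (100%), so reads were recovered, and 0 reads stood as 0.9. The step of 1 read was the same for every gene, so values carry no correction for gene length. Genes with a mean log2 level of at least that of 10 were tested (10231 of 23473 entries), with limma 3.58.1 in R 4.3.3, 1 mean for each of 10 groups over all 80 fish, a mean-variance trend, two-sided tests and Benjamini-Hochberg adjustment at 0.05. A ± after a difference is its SE. The fit was tested on simulated data in which all fish were independent. Shared exposures and libraries that stand apart were not simulated, so that test does not cover them.

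The comparison, gene lists (32) and rules were chosen with earlier results of these data known. Named are the 10 genes with the smallest p in each direction (clone names left out), the top 3 of each list and of each other contrast, and 9 fixed genes, of which cyp19a1b was not analysed here. The genes pparaa, plp1b, mbpa, nme2b.1, mical3b, gosr1, vrk3, npy and both clone-named genes with a difference were chosen after their values were seen. Differences of the neuronal markers elavl3, snap25a, snap25b and syt1a were also added after their values were seen. Exact permutation tests used exposure replicate means. Since a number stands for a single age in the labels, numbers were taken to pair the samples. As a check, deviations of same-numbered PFOS10 and control males correlated at 0.02, 0.19, 0.08 and 0.26 (over 0.1 in 2 of 4). Pairs of other numbers had a median of -0.06 and ran from -0.47 to 0.42, a range that holds all same-numbered values. Of the 4 PFOS10 replicates 1 correlated best with its own number, so the check does not settle the pairing. No 2 libraries agreed within sampling noise.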

Additional observations from a re-analysis of the deposited data

Results flagged for a closer look

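Of 64 sets of 8 values examined for a fish far from the rest, 9 held one, and chance alone gives about 1 in 20 for independent sets. These sets are not independent, since they share fish and hold related genes, so the flags are not separate events. The first component was lowest in control male 3_2, at -2.67, with the next at -0.47. That library was also lowest for hlfa, a clock output gene, at 2.84 (next 4.999), and for dis3l2, an RNA nuclease gene, at 4.18 (next 4.77). Among control males the highest flr, a ciliary transport gene, was 7.26 (next 6.88).

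PFOS10 male 3_1 was far above the other PFOS10 males in the immediate-early genes egr3 at 6.77 (next 5.600), npas4a at 10.24 (next 7.67), nr4a1 at 6.78 (next 4.16) and fosab at 7.31 (next 5.77). The lowest PFOS10 male for rrm2, 5_1, stood at -3.43, the value of 0 reads, with the next at 3.34, and its reads lay in the second entry of that symbol.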

How the results depend on the processing

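Each comparison across genes kept 0 calls under every alternative run but 1. Fitting only the 16 male fish with the number as a replicate block called 1 gene, si:ch211-132b12.7 (adjusted p = 0.00987, limma). In the fit of all fish it differed by -0.88 ± 0.74, adjusted p = 0.831. With the replicate block in the fit of all fish 0 genes were called and 694 had an unadjusted p under 0.05, and the block changed no other call. Leaving out each number in turn gave 0 calls, as did leaving out control male 3_2 (159 genes under an unadjusted 0.05), PFOS10 male 3_1 (249), an estimated correlation between fish of 1 exposure replicate (144) and the first component as a covariate (164). Among all settings the smallest adjusted p of the male comparison, apart from the 1 called gene, was 0.468, with voom. Of 521 recomputed list medians 20 moved by more than the spread between numbers. An edgeR test was planned and not run, since the deposited unit is log2. Named genes that did not pass and changed sign or reached 0 had these differences: with the first component as a covariate, stat1a 0.004138, krt8 -0.01375, mt-nd6 0.1462, mt-co2 0.06842 and mt-nd2 0.1255; without the 3 libraries labelled male with a female-like dio2 level, krt8 -0.01671, mt-nd6 0.006658, mt-co2 0.0315, mt-nd2 0.06436 and senp5 0.03648; after quantile normalization, mt-co2 0. Leaving out each number, control male 3_2 or PFOS10 male 3_1 in turn, their lowest and highest values were: crhbp -0.01752 to 0.3492, esr1 -0.3364 to 0.01699, hsd17b12b -0.004954 to 0.1687, krt5 -0.574 to 0.397, krt8 -0.09436 to 0.1784, mt-co2 -0.2304 to 0.01227, mt-nd2 -0.1535 to 0.02814, mt-nd6 -0.2132 to 0.003138, senp5 -0.1062 to 0.06515, stat1a -0.2801 to -0.07648 and tpma -0.2727 to 0.05303. The precision is set by 8 fish a group and by 4 exposures, and genes below a mean level of 10 were not tested.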

Other observations

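Neuropeptide precursor genes had higher means in PFOS10 males for 22 of 31 (60.1% of all genes), with a median of 0.12, and 4, all higher, had an unadjusted p under 0.05 (2.0% of all genes). The median was 0.065 without control male 3_2. The nociceptin precursor gene pnocb was at 4.06 to 5.02 (median 4.41) in PFOS10 males and 3.31 to 4.63 (median 4.14) in control males, higher in 4 of 4 numbers (0.46 ± 0.17, adjusted p = 0.831, limma), and the dynorphin precursor gene pdyn was at 5.56 to 7.47 (median 6.20) in PFOS10 males and 4.77 to 6.45 (median 5.81) in control males, also higher in all 4 (0.54 ± 0.25). The feeding peptide gene npy differed by -0.41 ± 0.22 (adjusted p = 0.831, limma), and without both control males of number 3 its levels in PFOS10 males, 7.04 to 7.59, lay below the 6 other controls, 7.63 to 8.44. The exposure numbers are not matched there, and npy was singled out after its values were seen. The female difference of npy was 0.00 ± 0.22.

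The photoreceptor phosphodiesterase gene pde6ha was at 2.66 to 7.75 (median 4.82) in PFOS10 males and 1.78 to 6.46 (median 3.42) in control males, with differences of 3.48 in number 4 and -1.49 in number 5 (1.003 ± 0.86). The clone-named gene si:dkey-253d23.5 had the smallest p of all genes, at 2.46 to 3.61 (median 3.12) in PFOS10 males and 3.05 to 4.16 (median 3.56) in control males. It was lower in 4 of 4 numbers (-0.50 ± 0.13, adjusted p = 0.831, limma; -0.59 without number 3 controls), and 0.07 apart in females.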
